A study of Mus musculus with 18 samples.

Results

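The 10 genes described here, Col1a1, Col1a2, Col3a1, Acta2, Timp1, Lrat, Des, Tgfb1, Dcn and Pdgfrb, are genes of hepatic stellate cells and of the extracellular matrix that these cells lay down. They were taken by gene symbol from the 19057 lines of a liver expression table, and each matched 1 line. Liver RNA-seq was available for 18 mice in 6 groups of 3, and the values are RPKM, reads scaled to the length of the transcript and to the number of reads mapped in the library. All mice were of the outbred ICR stock and 10 weeks old, and the study's methods describe males. The control (Con) group ate a regular diet. The AOS mice, whose label names no high-fat diet and who are counted here as fed the regular diet, were given alginate oligosaccharide, short chains cut from the seaweed polymer alginate, at 10 mg/kg. The HFD group ate a high-fat diet. The HFD+AOS group ate the same diet and was given AOS at 10 mg/kg. The feeding and dosing of the AOS and HFD+AOS groups are not described in the study's methods. The Con-FMT and A10-FMT groups ate the high-fat diet and received gut microbiota from control donors or from donors given AOS at 10 mg/kg. The small intestinal contents of the donors of each kind were pooled before transfer, so the livers of 1 FMT group share a single inoculum.

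Hepatic stellate cells lie between the sinusoids and the hepatocytes of a healthy liver, where they store vitamin A as retinyl esters made by lecithin retinol acyltransferase (Lrat). On injury they can lose these stores, divide in response to platelet-derived growth factor, and become contractile myofibroblasts that secrete fibrillar collagen, a change driven in large part by transforming growth factor beta. Decorin (Dcn), desmin (Des) and the receptor Pdgfrb mark the cells before as well as after this change, while smooth muscle actin (Acta2), the collagens Col1a1, Col1a2 and Col3a1, and the protease inhibitor Timp1 are commonly read as signs of activation.

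The samples held the transcripts of liver: 8 hepatocyte genes summed to between 38297.9 and 62774.0 RPKM per liver, and Alb was never below 24367 RPKM. The 10 genes were a small part of that RNA. Dcn was the most abundant of them, with 61.37 to 98.16 RPKM over the 18 livers, and no other member passed the 10.89 RPKM that Col3a1 reached in 1 liver. Whole-read steps in 111 sparse genes put the depth near 13200000 reads. Reads per liver were estimated from this single depth, used for all livers, and from the longest annotated transcript of each gene, so they are approximate. At that depth Dcn rested on about 3798 to 6075 reads per liver and Col3a1 on 299 to 799. Col1a2 rested on about 90 to 280 reads, Tgfb1 on 96 to 160, Lrat on 65 to 196 and Pdgfrb on 93 to 175. The lowest were Col1a1 with about 34 to 203 reads, Des with 32 to 64, Acta2 with 9 to 100 and Timp1 with 1 to 6. The third Con and the third AOS livers lay between the other livers of their group for 98.0% of 148 and 96.5% of 142 genes that differed by at least 1 on the log2 scale between those others. The share was 58.1% to 76.8% for the livers of the other 4 groups taken the same way. The median distance on the log2 scale from the closest mixture of the other 2 livers was 0.0665 for Con 3 and 0.0830 for AOS 3, against 0.341 to 0.590 in the other groups. Con 3 and AOS 3 may therefore not be independent livers, in which case n = 3 overstates these groups and their SE and p-values are too small. Of the 10 members, counted whatever the size of their differences, Con 3 lay between Con 1 and Con 2 for 3. AOS 3 lay between AOS 1 and AOS 2 for 4 of them. Calls that were lost without Con 3 and AOS 3 are given with their value. Single livers are named by group and number, HFD 2 being the second HFD liver, and a call is a limma adjusted p below 0.05. Where a call is said to be kept or lost in a number of alternatives, these are other settings and other livers at that same threshold, and the stricter cut-offs of the study are not among them.

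**Figure D1:**
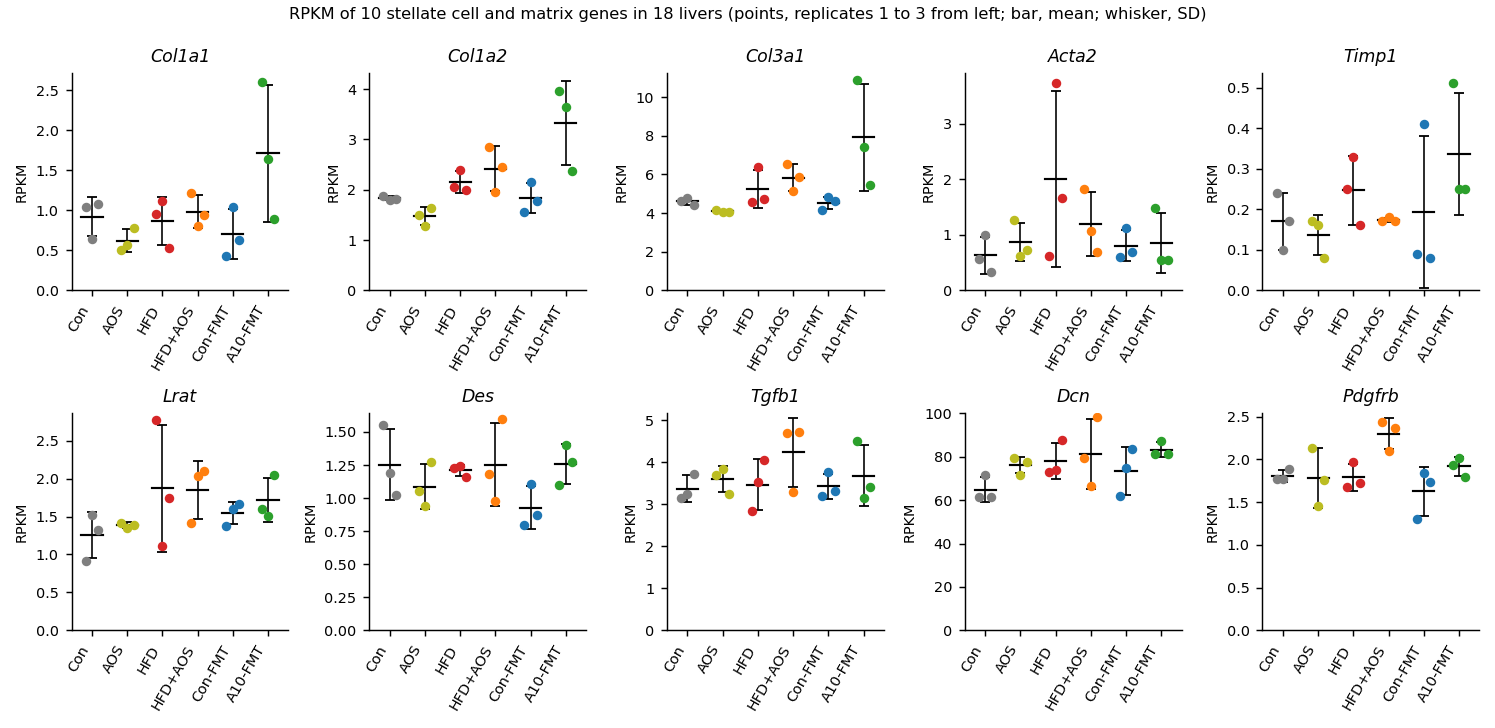
RPKM (vertical axes, from 0) of the 10 genes in the 6 groups; points are single livers in replicate order, the bar is the mean of 3 livers and the whisker its SD. The A10-FMT group has the highest mean of Col1a1, Col1a2 and Col3a1, carried mainly by its first and second livers, while 1 HFD liver stands alone in Acta2 at 3.74 RPKM.

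The fibrillar collagens were highest in the A10-FMT livers. Col1a1 and Col1a2 encode the chains of type I collagen, and Col3a1 encodes type III collagen, which forms fibres with it. Col1a2 stood at 3.97, 3.64 and 2.38 RPKM in the 3 A10-FMT livers, against 2.06, 2.40 and 1.99 in HFD, 1.56, 2.15 and 1.77 in Con-FMT, 2.85, 1.96 and 2.45 in HFD+AOS, 1.87, 1.79 and 1.82 in Con and 1.5, 1.28 and 1.63 in AOS. Every A10-FMT liver was above every Con-FMT, Con and AOS liver, while the lowest of them, the third, lay within the HFD and HFD+AOS ranges. Col3a1 stood at 10.89, 7.44 and 5.43 RPKM in A10-FMT, against 4.58, 6.38 and 4.75 in HFD, 4.16, 4.81 and 4.60 in Con-FMT, 6.52, 5.13 and 5.85 in HFD+AOS, 4.60, 4.80 and 4.43 in Con and 4.16, 4.08 and 4.07 in AOS. Here too the A10-FMT livers were all above the Con-FMT, Con and AOS livers and overlapped with HFD and HFD+AOS. Col1a1 stood at 2.60, 1.64 and 0.89 RPKM in A10-FMT, 0.95, 1.12 and 0.53 in HFD, 0.43, 1.04 and 0.63 in Con-FMT, 1.21, 0.80 and 0.94 in HFD+AOS, 1.04, 0.64 and 1.08 in Con and 0.51, 0.57 and 0.78 in AOS. Its A10-FMT range overlapped with all but the AOS range. The first A10-FMT liver ranked 1 and the second ranked 2 among the 18 livers in each of the 3 collagens, and the third ranked 10 in Col1a1 and 6 in Col1a2 and Col3a1.

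The order of the group means was alike for the 3 genes at its ends. AOS was lowest, with 0.620 ± 0.142 RPKM of Col1a1, 1.47 ± 0.177 of Col1a2 and 4.10 ± 0.0493 of Col3a1, and A10-FMT was highest, with 1.71 ± 0.857, 3.33 ± 0.839 and 7.92 ± 2.76 (SD, n = 3). HFD+AOS came second in each, with 0.983 ± 0.208, 2.42 ± 0.446 and 5.83 ± 0.695 RPKM, and its livers overlapped with the HFD livers in all 3. Con, HFD and Con-FMT changed places between the genes, and their ranges overlapped except for Col1a2 in Con and HFD. Over all 6 groups limma's F test called Col1a2 (F = 8.81, Benjamini-Hochberg adjusted p = 0.00832) and Col3a1 (F = 5.8, adjusted p = 0.0306) and none of the other 7 members tested, where 14.8% of the 10507 genes tested were called. The Col3a1 call was lost without the third Con and AOS livers (adjusted p = 0.116, the highest of all alternatives), with no filter on low values (0.0648), and without any 1 of AOS 1, AOS 2, AOS 3, Con 1, Con 3 and A10-FMT 2. Col1a1 (adjusted p = 0.131) was called when A10-FMT 3 was left out (0.0247).

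Against Con-FMT, which by the labels differs from A10-FMT in the donors' treatment, Col1a2 was higher by 0.60 on the log2(RPKM + 1) scale (SE 0.13, limma adjusted p = 0.0297), a ratio of means of 1.82. It was the only member called, where 1.68% of all genes tested were called. Col3a1 was higher by 0.65 (SE 0.16, adjusted p = 0.0546) and Col1a1 by 0.64 (SE 0.20, adjusted p = 0.123), with ratios of 1.75 and 2.44. The 9 tested members all had a higher mean in A10-FMT than in Con-FMT, with a median difference of 0.19 on that scale, beside 43% of all genes higher and a median of -0.03. The groups did not overlap for Col1a2 and Col3a1, against 7.18% of all genes that did not overlap and were higher in A10-FMT. The Col1a2 call was lost in 8 of 12 alternatives. The limma adjusted p was 0.146 without A10-FMT 1, 0.149 without A10-FMT 2, 0.0825 without Con-FMT 1, 0.0559 without Con-FMT 2 and 0.0735 without Con-FMT 3. It was 0.0693 without the third Con and AOS livers, 0.0650 with no filter on low values and 0.250 when only these 2 groups were fitted. Without A10-FMT 3 all 3 collagens were called, with adjusted p between 0.00133 and 0.0131.

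The comparison with HFD shares the A10-FMT livers with the one above. Col1a1 was higher in A10-FMT by 0.50 on the log2(RPKM + 1) scale (SE 0.20, limma adjusted p = 0.133), Col1a2 by 0.44 (SE 0.13, adjusted p = 0.0538) and Col3a1 by 0.48 (SE 0.16, adjusted p = 0.0784). The ratios of the means were 1.97, 1.55 and 1.51. None of the 9 members was called, where 6.6% of all genes were; these 3 had an unadjusted p below 0.05, as did 24.5% of all genes. Setting the library medians equal brought Col1a2 (adjusted p = 0.0270) and Col3a1 (0.0435) past the threshold, and leaving out A10-FMT 3 brought Col1a1 (0.0187), Col1a2 (0.00404) and Col3a1 (0.00561) past it. Con-FMT lay below HFD by 0.14, 0.16 and 0.17 in Col1a1, Col1a2 and Col3a1, in a comparison that shares its livers with those above. All 9 members had a lower mean in Con-FMT, beside 49.5% of all genes with a higher one, and none was called by limma or had an unadjusted p below 0.05, where 0.00952% of all genes were called and 6.63% had such a p.

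**Figure D2:**
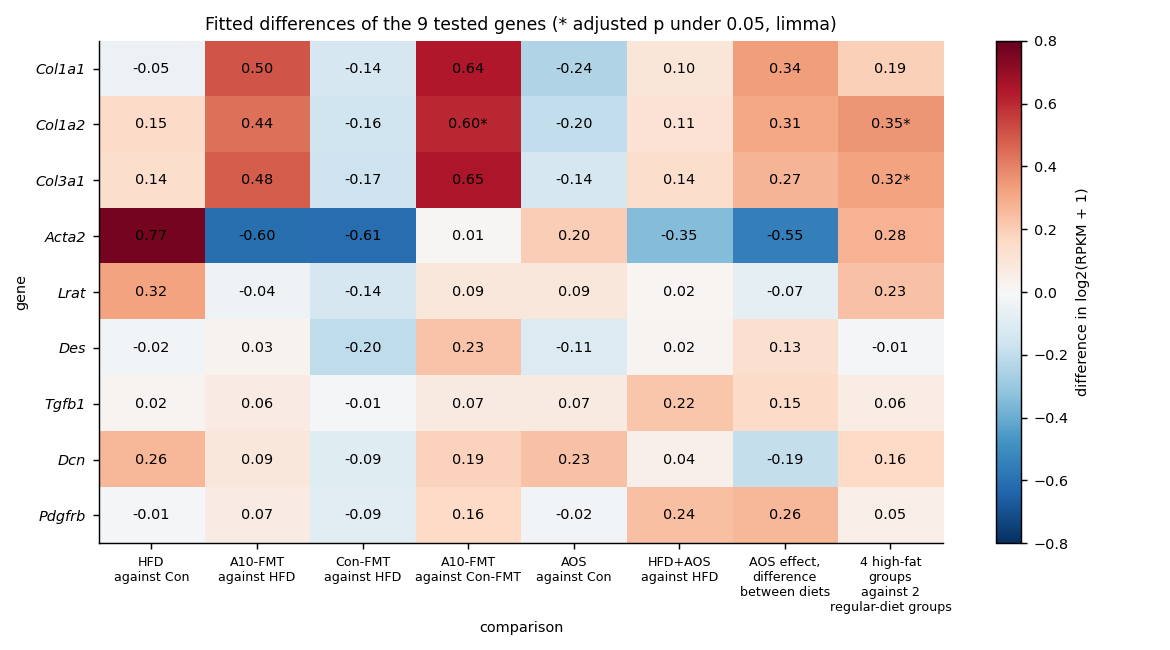
Fitted differences in log2(RPKM + 1) (colour and number) of the 9 tested genes (vertical axis) in 8 comparisons (horizontal axis); an asterisk marks a limma adjusted p under 0.05. The marked cells are Col1a2 in A10-FMT against Con-FMT (0.60) and Col1a2 and Col3a1 in the high-fat against the regular-diet groups (0.35 and 0.32).

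The promoters of the called pair are shown because their transcripts moved together. RefSeq gave an entry for 7 of the 10 members. The stretches below come from the 250 bases before the RefSeq start on GRCm38.p6, plus strand, at chr6:4505370-4505492 for Col1a2, shortened where GENCODE annotates transcribed untranslated sequence, and at chr1:45311288-45311537 for Col3a1, directly before the first exon. Capitals mark GGGCGG (the GC box core), TATAAA (a core promoter element) and CAGACA (a Smad-binding element). Each was searched on both strands, so that a match of CAGACA on the minus strand appears as its reverse complement, TGTCTG.
Col1a2: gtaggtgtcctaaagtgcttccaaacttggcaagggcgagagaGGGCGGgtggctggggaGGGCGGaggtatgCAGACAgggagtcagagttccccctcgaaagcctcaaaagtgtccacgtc
Col3a1: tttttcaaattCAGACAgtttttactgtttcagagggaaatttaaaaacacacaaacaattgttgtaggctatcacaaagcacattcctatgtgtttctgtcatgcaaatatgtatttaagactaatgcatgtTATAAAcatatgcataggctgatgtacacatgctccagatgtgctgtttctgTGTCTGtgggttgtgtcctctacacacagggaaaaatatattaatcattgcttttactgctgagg
The Col1a2 stretch held GGGCGG from positions -205 and -188 and CAGACA from -175, counted from the RefSeq start. The Col3a1 stretch held CAGACA from -239, TATAAA from -117 and the reverse complement of CAGACA from -65. Of 32851 promoter windows of 250 bases, 32.7% held GGGCGG, 12.4% TATAAA and 17.1% CAGACA, so that CAGACA, the motif the pair shared, was a frequent one. The promoter of Acta2, which is not shown, also held it, on the minus strand from -236. The Col1a2 gene spans chr6:4504814-4541544 and Col3a1 spans chr1:45311538-45349706 in GENCODE on GRCm38, with 52 and 51 exons in their longest transcripts. Col1a1, with 51, lies at chr11:94936224-94953042. By these GENCODE positions the Col1a2 stretch lies inside the annotated gene, although before the RefSeq start, while the Col3a1 stretch lies directly before its gene.

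Among 10498 genes outside the members, those whose values over the 18 livers were most like the mean of the 3 collagens were Vim (Pearson r = 0.91), Gsn (0.90), Col6a2 (0.88), Cd3eap (0.85) and Islr (0.85). Vim encodes the intermediate filament vimentin of mesenchymal cells, Gsn the actin-severing gelsolin, Col6a2 a chain of type VI collagen, and Cd3eap a subunit of RNA polymerase I. Gsn stood at 13.34, 8.79 and 5.57 RPKM in the A10-FMT livers, at 10.11 in the first HFD+AOS liver, and at 3.54 to 7.13 in the other 14 livers. Vim stood at 12.98, 10.61 and 7.91 RPKM in A10-FMT and between 6.01 and 10.36 elsewhere. These r values include the differences between groups, and A10-FMT 1 was the highest liver in Col1a1, Col1a2, Col3a1, Vim, Gsn and Col6a2.

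Within groups, after the group means were taken out, 45 pairs of members were compared over the 18 livers by permuting livers within groups (100000 resamples, two-sided). Col1a1 with Col1a2 gave r = 0.86 and rho = 0.85 (permutation p = 0.000480 and 0.000280, Benjamini-Hochberg adjusted 0.0216 and 0.0126), and r was 0.74 without the 2 livers farthest from the median. Col1a2 with Col3a1 gave r = 0.84 and rho = 0.76 (permutation p = 0.00210 and 0.00493, adjusted 0.0472 and 0.0795), and r was 0.71 without such livers. No other pair passed an adjusted p of 0.05. Col3a1 with Acta2 (r = 0.69, adjusted p by permutation 0.0504) and Col1a2 with Pdgfrb (r = 0.62, adjusted p by permutation 0.0504) came next, and without the third Con and AOS livers Col1a2 with Pdgfrb passed (adjusted p by permutation 0.0241). The values did not fall into separate clusters, but the first A10-FMT liver was the highest in all 3 collagens.

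In bulk liver, fewer cells of a type and less RNA per cell cannot be told apart. The 12 portal fibroblast markers summed to 15.48, 10.79 and 9.12 RPKM in the A10-FMT livers from the highest down, against 8.09 to 10.73 in HFD, 8.71 to 9.23 in Con-FMT and 9.77 to 15.30 in HFD+AOS. Of the 12, Dpt (3.90 RPKM), Clec3b (1.02) and Fbln2 (0.86) are named because the first A10-FMT liver was the highest of the 18 in them. HFD+AOS 1 held the next highest Dpt (3.23) and Fbln2 (0.69). Thy1, Eln, Entpd2, Cd34 and Mfap4 are not given singly. Gli1 (0.00 to 0.09 RPKM), Mfap5 (0.00 to 0.19) and Pi16 (0.00 to 0.24) were at or near 0 throughout, and none of the 4 portal fibroblast markers tested was called between A10-FMT and HFD or Con-FMT. The 6 mesothelial markers, of the liver's outer covering, summed to 4.48 to 5.64 RPKM in A10-FMT, 3.94 to 4.30 in Con-FMT, 2.45 to 4.48 in HFD and 4.60 to 5.94 in Con. Upk3b, 1 of the 3 tested, was higher in A10-FMT than in HFD by 0.49 (limma adjusted p = 0.0445). The Upk3b call was lost without any 1 of A10-FMT 1, A10-FMT 2, A10-FMT 3, HFD 2 and HFD 3 (highest adjusted p over all alternatives 0.169) and without the third Con and AOS livers (0.0799). The mesothelial sums of Con and A10-FMT overlapped, and the Con livers held 1.79 to 1.87 RPKM of Col1a2. A link between the mesothelial sum and Col1a2 was not tested. The 8 lymphocyte markers summed to 7.96 and 6.03 RPKM in A10-FMT 1 and A10-FMT 2, the livers highest in the collagens, to 2.78 in A10-FMT 3 and to 3.12 to 5.28 in the other 15 livers, and none of the 3 tested was called in either comparison. The part of these cell types in the collagen difference was not tested. The 21 stellate cell markers outside the members summed to 317 to 363 RPKM in A10-FMT, 311 to 339 in Con-FMT and 278 to 310 in HFD, and none of the 24 tested was called in either comparison.

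**Figure D3:**
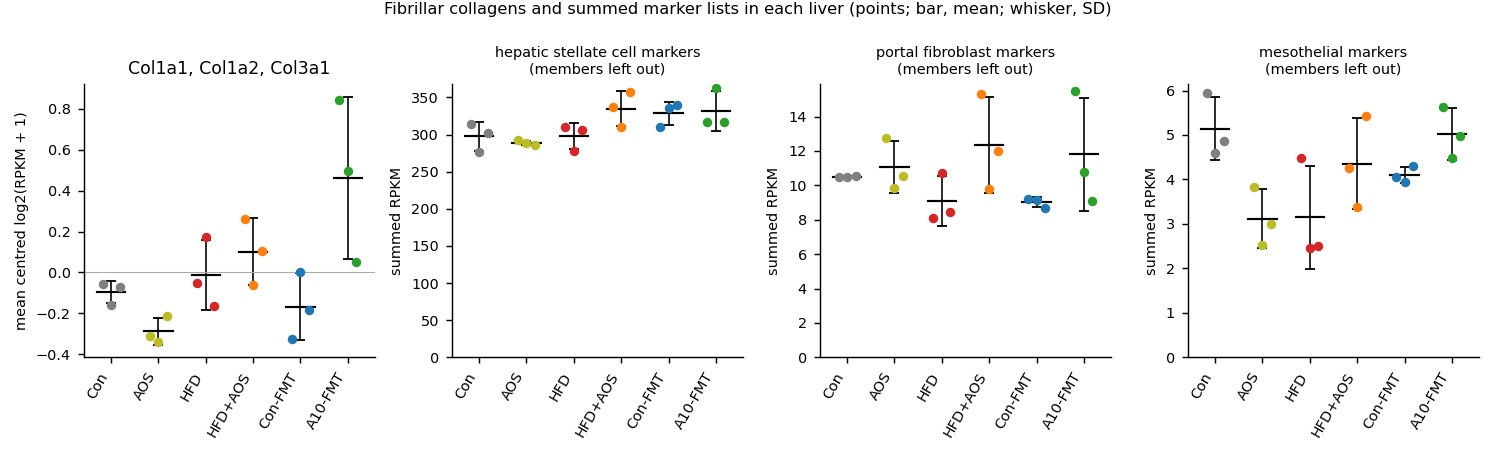
First panel, the mean over Col1a1, Col1a2 and Col3a1 of centred log2(RPKM + 1); other panels, summed RPKM of stellate cell, portal fibroblast and mesothelial markers without the members; points are livers, bars means and whiskers SD. The first and second A10-FMT livers lie at 0.84 and 0.49 in the collagen panel, and the first A10-FMT liver also has the highest portal fibroblast sum, 15.48 RPKM.

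The 4 high-fat groups had more Col1a2 and Col3a1 RNA than the 2 regular-diet groups. Since 6 of the 12 high-fat livers also received microbiota and no regular-diet liver did, diet and transfer cannot be told apart in this contrast. HFD against Con compares the diets without transfer or AOS. Col1a2 was higher by 0.35 on the log2(RPKM + 1) scale (SE 0.08, limma adjusted p = 0.00906) and Col3a1 by 0.32 (SE 0.10, adjusted p = 0.0413), 2 of 9 members where 12.9% of all genes were called. Of the 12 high-fat livers, 10 were above every regular-diet liver in Col1a2, 8 in Col3a1 and 4 in Col1a1, and the pooled ranges overlapped for all 10 members. With the A10-FMT group left out of the contrast no member was called: Col1a2 was higher by 0.24 (adjusted p = 0.0946) and Col3a1 by 0.20 (adjusted p = 0.253). Col3a1 also lost its call without the third Con and AOS livers (adjusted p = 0.176), with no filter on low values (0.0760), and without any 1 of 12 livers, the 6 regular-diet livers, HFD 2, HFD+AOS 1, HFD+AOS 3, A10-FMT 2, Con-FMT 2 and Con-FMT 3. HFD against Con alone gave 0.15 for Col1a2 (adjusted p = 0.606) and 0.14 for Col3a1 (adjusted p = 0.710). None of the 9 members was called by limma and 1, Acta2, had an unadjusted p below 0.05, where 0.381% of all genes were called and 15.4% had such a p. Nor did HFD against Con call any tested gene of the other lists described below. HFD+AOS against AOS, which also differ in diet without transfer, was not tested. The HFD+AOS livers held 1.96 to 2.85 RPKM of Col1a2, against 1.28 to 1.63 in AOS. They held 5.13 to 6.52 of Col3a1 against 4.07 to 4.16, and 0.80 to 1.21 of Col1a1 against 0.51 to 0.78.

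Of the 14 listed fibrillar and network collagens 11 were tested, and in the 4 high-fat groups 5 rose, the 2 members with Col5a1 (0.20), Col6a2 (0.19) and Col14a1 (0.35), while Col15a1, a collagen of basement membrane zones, fell by 0.68 (limma adjusted p = 0.00204). Their median difference was 0.19, beside 0.01 for all genes tested, of which 7.16% were called higher and 5.74% lower. The calls of Col5a1, Col6a2 and Col14a1 were lost without the A10-FMT group (adjusted p of 0.0797, 0.326 and 0.0538), without the third Con and AOS livers (0.182, 0.0976 and 0.118) and without any 1 of 10, 13 and 4 single livers. That of Col15a1 was kept in all 25 alternatives. Col15a1 stood at 1.60 to 2.83 RPKM in the 6 regular-diet livers and at 0.43 to 1.73 in the 12 high-fat livers. Of 18 matrix glycoproteins and proteoglycans tested, of 31 listed, 4 rose and none fell. Sparc, which binds collagen, rose by 0.33 (adjusted p = 0.00315) and Postn by 0.34 (0.00597). The plasma and matrix protein fibronectin, Fn1, rose by 0.23 (0.0105), and Bgn, the proteoglycan nearest to decorin, by 0.30 (0.0121). Sparc stood at 15.49 to 18.01 RPKM in the regular-diet livers and at 18.43 to 24.94 in the high-fat livers, with no overlap, as was the case and higher for 0.39% of all genes. Its call was kept in all 25 alternatives, and those of Postn, Fn1 and Bgn were lost without the third Con and AOS livers (adjusted p of 0.0574, 0.0577 and 0.0513). In HFD against Con none of the 11 collagens and none of the 18 glycoproteins and proteoglycans was called. There 6 of the 11 and 12 of the 18 were higher on average, beside 62.5% of all genes. The medians were 0.07 and 0.19, beside 0.05.

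Col6a2 followed the fibrillar collagens in the FMT comparisons. It stood at 1.95, 1.69 and 1.43 RPKM in A10-FMT, above the highest value of any other liver (1.22), and was higher than in HFD by 0.34 (limma adjusted p = 0.0409) and than in Con-FMT by 0.41 (adjusted p = 0.0352). The call against HFD was lost without any 1 of A10-FMT 1, A10-FMT 2, HFD 1, HFD 2 and HFD 3, with the replicate block and without the third Con and AOS livers (0.0740; highest over all alternatives 0.187). The call against Con-FMT was lost without any 1 of A10-FMT 1, A10-FMT 2, Con-FMT 1 and Con-FMT 2, with the block and without the third Con and AOS livers (0.0799; highest 0.263). Fn1 (-0.02 and -0.11 against HFD and Con-FMT), Col4a1 of basement membranes (-0.08 and -0.06) and Lum, which binds collagen fibrils (0.16 and 0.48), were not called in either. Of the 11 collagens tested, members included, 8 had a higher mean in A10-FMT than in HFD and 9 than in Con-FMT. The 11 collagens outside the members summed to 162.75 to 184.12 RPKM in A10-FMT, 168.96 to 202.43 in HFD and 177.24 to 197.43 in Con-FMT. Of the 11 tested genes for collagen processing and crosslinking, none was called in these comparisons or between diets. In A10-FMT 4 of them had a higher mean than in HFD and 2 than in Con-FMT, with medians of -0.07 and -0.12. Pcolce, the enhancer of procollagen C-proteinase, and P4ha2, a prolyl hydroxylase subunit, were called among the 6 groups by the F test (adjusted p of 0.0334 and 0.0377), as was the basement membrane collagen Col4a2 (0.0353). These 3 calls were lost without the third Con and AOS livers (0.126, 0.190 and 0.146) and without any 1 of 9, 11 and 10 single livers. Pcolce stood at 6.67, 5.47 and 5.86 RPKM in A10-FMT and at 3.56 to 6.2 elsewhere.

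Dcn, the small proteoglycan that coats collagen fibrils, stood at 61.57, 71.61 and 61.37 RPKM in Con, 79.23, 71.85 and 77.48 in AOS, 72.95, 73.80 and 87.80 in HFD, 79.40, 66.41 and 98.16 in HFD+AOS, 61.98, 74.70 and 83.69 in Con-FMT and 81.19, 87.15 and 81.13 in A10-FMT. The Con livers were lowest on average, 64.9 ± 5.86 RPKM, and did not overlap with AOS or HFD, for which 24.7% and 18.5% of all genes did not overlap with Con. No comparison called it: HFD against Con gave 0.26 (limma adjusted p = 0.345), AOS against Con 0.23 (adjusted p = 0.417) and A10-FMT against HFD 0.09 (adjusted p = 0.708). Its pattern over the livers was most like that of Slc43a3 (r = 0.88), a purine transporter, and Plvap (r = 0.86), a protein of endothelial fenestrae.

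Acta2, the actin of smooth muscle and of myofibroblasts, had 1 liver far above the rest. It stood at 0.62, 3.74 and 1.67 RPKM in HFD, against 0.57, 0.99 and 0.33 in Con, 1.26, 0.62 and 0.72 in AOS, 1.82, 1.07 and 0.70 in HFD+AOS, 0.61, 1.12 and 0.69 in Con-FMT and 1.48, 0.54 and 0.54 in A10-FMT. The second HFD liver was above all others, and every other group overlapped with the HFD range. The HFD mean exceeded Con by 0.77 on the log2(RPKM + 1) scale (SE 0.31, limma adjusted p = 0.251) and by 0.37 (adjusted p = 0.583) without that liver. A10-FMT lay below HFD by 0.60 (adjusted p = 0.249), or by 0.20 (adjusted p = 0.725) without it. Without HFD 1 the difference from A10-FMT was called (-0.98, adjusted p = 0.0407).

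Of the 13 listed contractile genes outside the members, 4 are named here because the same HFD liver was the highest of the 18 in them. Values of the rest in single livers are not given. The 13 summed to 143.97 RPKM in HFD 2 and to 97.81 to 133.03 in the other livers. Myh11, smooth muscle myosin, stood in HFD 2 at 1.11 RPKM against 0.12 to 0.46 elsewhere, and Cnn1, calponin, at 0.80 against 0.00 to 0.29. Actg2, the enteric smooth muscle actin, stood at 0.84 against 0.00 to 0.26, and Tagln at 4.78 against 1.68 to 4.65. Myh11 and Cnn1 are genes of vessel wall muscle, whose part in the Acta2 value was not tested. The skeletal and cardiac actins Acta1 and Actc1, whose coding sequences are close to that of Acta2, did not pass 0.05 RPKM in any liver. Of the 8 contractile genes tested, of 14 listed, Cald1, caldesmon, was lower in A10-FMT than in HFD (-0.34, limma adjusted p = 0.0434), and 1 of 8 genes had a higher mean in A10-FMT. That call was lost without any 1 of HFD 2, HFD 3, A10-FMT 1 and A10-FMT 2 (highest adjusted p over all alternatives 0.234) and without the third Con and AOS livers (0.0842). Mylk, myosin light chain kinase, was higher in the high-fat groups by 0.28 (adjusted p = 0.0203), a call lost without AOS 3 or without the third Con and AOS livers (adjusted p = 0.0976, the highest).

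**Figure D4:**
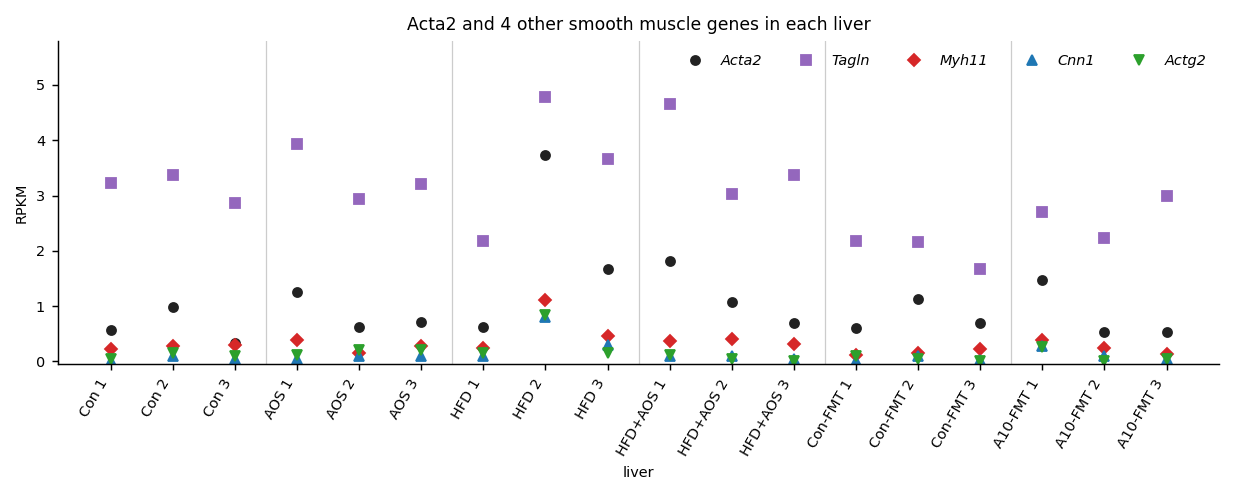
RPKM (vertical axis) of Acta2, Tagln, Myh11, Cnn1 and Actg2 in each of the 18 livers (horizontal axis, groups divided by lines). The second HFD liver has the highest value of all 5 genes, with Acta2 at 3.74 and Myh11 at 1.11 RPKM.

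Timp1, the secreted inhibitor of matrix metalloproteinases that rises sharply in fibrosis, was close to the detection limit. It stood at 0.24, 0.10 and 0.17 RPKM in Con, 0.17, 0.16 and 0.08 in AOS, 0.25, 0.33 and 0.16 in HFD, 0.17, 0.18 and 0.17 in HFD+AOS, 0.09, 0.41 and 0.08 in Con-FMT and 0.51, 0.25 and 0.25 in A10-FMT. These values were multiples of about 0.085 RPKM, within 0.176 of a read, and correspond to 1 to 6 reads per liver. It did not pass the filter of 1 RPKM in 3 livers, and in a fit of all 17109 genes with any value no comparison called it (lowest adjusted p 0.393, high-fat against regular diet, where it was higher by 0.10). A difference of less than a few reads was not detectable at this depth. Of the other inhibitors, Timp4 was listed at 0 in 16 livers and did not pass 0.25 RPKM, while Timp2, at 3.63 to 6.41 RPKM and highest in the first A10-FMT liver, and Timp3, at 1.77 to 3.11 RPKM, were not called in either FMT comparison or between diets. Mmp2, a gelatinase of stellate cells, stood at 0.31 to 1.2 RPKM, again highest in the first A10-FMT liver. Mmp15, a membrane-bound metalloproteinase, was the called gene among the 7 of this family tested. It was higher in the high-fat groups by 0.47 (limma adjusted p = 0.000335, kept in all 25 alternatives). In A10-FMT it exceeded HFD by 0.38 (adjusted p = 0.0484), and this call was lost without any 1 of A10-FMT 1, A10-FMT 2, A10-FMT 3, HFD 2 and HFD 3 (highest adjusted p over all alternatives 0.188) and without the third Con and AOS livers (0.0894).

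Lrat, the retinyl ester synthase that marks quiescent stellate cells, stood at 0.92, 1.52 and 1.32 RPKM in Con, 1.42, 1.35 and 1.39 in AOS, 2.77, 1.11 and 1.74 in HFD, 1.41, 2.03 and 2.10 in HFD+AOS, 1.38, 1.60 and 1.66 in Con-FMT and 1.60, 1.51 and 2.05 in A10-FMT. Its HFD livers held both the highest value and the lowest of the high-fat livers, and 8 of the 12 high-fat livers were above every regular-diet liver. The high-fat groups were higher by 0.23 (SE 0.10, limma adjusted p = 0.149), and this difference was called without HFD 2 (0.28, adjusted p = 0.0390), the liver high in Acta2. The genes most like Lrat over the 18 livers were Peak1 (r = 0.85) and Col14a1 (r = 0.82).

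Des, the intermediate filament desmin, stood at 1.55, 1.19 and 1.02 RPKM in Con, 1.05, 0.94 and 1.27 in AOS, 1.23, 1.24 and 1.16 in HFD, 1.18, 0.98 and 1.60 in HFD+AOS, 0.80, 1.11 and 0.87 in Con-FMT and 1.10, 1.40 and 1.27 in A10-FMT. Con-FMT was lowest and its livers lay below all HFD livers, in a comparison where 10.1% of all genes did not overlap, and the difference was not called (-0.20, limma adjusted p = 0.786). Pdgfrb, the receptor through which platelet-derived growth factor drives stellate cell division, stood at 1.77, 1.77 and 1.89 RPKM in Con, 2.14, 1.45 and 1.76 in AOS, 1.68, 1.97 and 1.72 in HFD, 2.44, 2.10 and 2.37 in HFD+AOS, 1.3, 1.84 and 1.74 in Con-FMT and 1.94, 2.02 and 1.80 in A10-FMT. The HFD+AOS livers were all above the HFD livers, where 27.2% of all genes did not overlap in either direction, by 0.24 on the log2 scale (SE 0.10, adjusted p = 0.125). None of the 9 members was called between HFD+AOS and HFD, where 8.75% of all genes were, and Pdgfrb was the one with an unadjusted p below 0.05, as had 26.2% of all genes.

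Ligands of that receptor family were called in these comparisons. Pdgfc was lower than in HFD in both high-fat groups that received AOS or microbiota of AOS-fed donors. It stood at 2.03, 3.42 and 3.26 RPKM in HFD, 1.17, 1.29 and 1.29 in HFD+AOS, 1.34, 1.05 and 0.86 in A10-FMT, 2.23, 2.44 and 1.61 in Con-FMT, and 2.43 to 3.76 in the 6 regular-diet livers. HFD+AOS lay below HFD by 0.78 (limma adjusted p = 0.00589, kept in all 12 alternatives) and A10-FMT by 0.89 (adjusted p = 0.00239, lost only when these groups were fitted alone, adjusted p = 0.0624), with the HFD livers shared by both. Over the 4 high-fat groups, the AOS and FMT livers among them, it was lower than in the regular-diet groups by 0.51 (adjusted p = 0.00194, kept in all 25 alternatives). Of the 3 tested ligands and receptors of this growth factor, Pdgfc included, none was called in HFD against Con. None was called in A10-FMT against Con-FMT or in Con-FMT against HFD either. Pdgfa, which signals through Pdgfra, was higher in the high-fat groups by 0.40 (adjusted p = 0.00716, lost without the third Con and AOS livers, 0.0608, and without the A10-FMT group). In A10-FMT it exceeded HFD by 0.50 (adjusted p = 0.0484, lost when any 1 of the 6 livers or the third Con and AOS livers were left out, highest 0.172). Pdgfra (0.41 to 0.81 RPKM) and Pdgfb (0.11 to 0.51) did not pass the filter.

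Tgfb1, the ligand that induces collagen synthesis in these cells, stood at 3.15, 3.24 and 3.73 RPKM in Con, 3.69, 3.84 and 3.25 in AOS, 2.84, 3.52 and 4.05 in HFD, 4.70, 3.29 and 4.72 in HFD+AOS, 3.19, 3.77 and 3.32 in Con-FMT and 4.50, 3.14 and 3.40 in A10-FMT. The 6 ranges overlapped with each other, and the largest of the pairwise differences tested, HFD+AOS against HFD, was 0.22 (SE 0.13, limma adjusted p = 0.293). The receptors Tgfbr1 (3.28 to 4.35 RPKM) and Tgfbr2 (2.40 to 5.62) were not called in any of the comparisons. Of 19 tested genes of the pathway, of 30 listed, 2 rose in the high-fat groups and none fell. Of all genes tested, 7.16% were called higher and 5.74% lower. Tgfbi, a matrix protein named for its induction by this ligand, rose by 0.49 (limma adjusted p = 0.00322, kept in all 25 alternatives), and the signal transducer Smad3 by 0.17 (adjusted p = 0.0325). The Smad3 call was lost without the third Con and AOS livers (0.141, the highest of all alternatives) and without any 1 of Con 1, Con 3, AOS 2, AOS 3 and HFD+AOS 2. The median of the 19 was 0.04. Smad7, the inhibitory Smad, stood at 1.77, 2.33 and 2.18 RPKM in Con and between 2.02 and 3.73 elsewhere. It was called among the 6 groups by the F test (adjusted p = 0.0390), but not without the third Con and AOS livers (0.152) or without any 1 of 12 single livers.

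Skil, which encodes the SnoN repressor of Smad signalling, fell where AOS or AOS microbiota were given on the high-fat diet. It stood at 2.49, 2.91 and 4.07 RPKM in HFD, 0.88, 1.14 and 1.43 in HFD+AOS, 1.60, 1.76 and 1.89 in A10-FMT and 2.89, 4.62 and 2.95 in Con-FMT, with no overlap between the HFD+AOS or A10-FMT livers and either of the others. HFD+AOS lay below HFD by 0.94 (limma adjusted p = 0.00331, kept in all 12 alternatives). A10-FMT lay below HFD by 0.58 (adjusted p = 0.0482) and below Con-FMT by 0.69 (adjusted p = 0.0492), and both calls were lost without A10-FMT 1, A10-FMT 2, or the third Con and AOS livers (0.0817 and 0.0969). They were also lost without HFD 2 or HFD 3 (highest adjusted p over all alternatives 0.191), or without Con-FMT 2 or Con-FMT 3 (highest 0.244). Within the regular diet, AOS livers held 2.66, 2.79 and 3.31 RPKM and Con livers 2.07, 3.41 and 2.47.

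For AOS on the regular diet none of the 9 members was called against Con by limma and none had an unadjusted p below 0.05, where 0.133% of all genes were called and 15.5% had such a p. The collagen means were lowest in the AOS livers, with differences from Con of -0.24 for Col1a1, -0.20 for Col1a2 and -0.14 for Col3a1 (SE 0.20, 0.13 and 0.16), and they were slightly higher in HFD+AOS than in HFD, by 0.10, 0.11 and 0.14. The difference between these effects, tested as an interaction, was 0.34, 0.31 and 0.27 (limma adjusted p of 0.591, 0.456 and 0.590). No member was called in it, by limma, at an adjusted or an unadjusted p of 0.05, where 0.504% of all genes were called and 14.7% had an unadjusted p below it.

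Of 25 listed stellate cell markers, members included, 24 were tested. In the 4 high-fat groups 4 rose and none fell, beside 7.16% of all genes called higher and 5.74% lower. On average 21 were higher, beside 51.9% of all genes, with a median difference of 0.21, beside 0.01. In HFD against Con none of the 24 was called, with 20 higher on average beside 62.5% of all genes and a median of 0.25 beside 0.05. Reln, the secreted glycoprotein reelin made by stellate cells, rose by 0.54 (limma adjusted p = 0.00225) and Angptl6, an angiopoietin-like secreted factor, by 0.53 (adjusted p = 0.00277), and both calls were kept in all 25 alternatives. Reln stood at 2.29 to 4.01 RPKM in the regular-diet livers and at 3.15 to 6.78 in the high-fat livers, where the second HFD liver was lowest. Vim rose by 0.28 (adjusted p = 0.0403) and the collectin Colec11 by 0.34 (adjusted p = 0.0458). These calls were lost in 12 and 13 of the 18 omissions of 1 liver, without the third Con and AOS livers (0.0802 and 0.134), with the replicate block and without the A10-FMT group. Their adjusted p reached 0.159 and 0.138. Cygb, the stellate cell globin, was higher in HFD+AOS than in HFD by 0.51 (adjusted p = 0.0349), and the portal fibroblast marker Gas1 by 0.67 (adjusted p = 0.0208). The Cygb call was lost without the third Con and AOS livers (0.0670) and without any 1 of HFD 1, HFD 3, HFD+AOS 1 and HFD+AOS 3 (highest adjusted p over all alternatives 0.127). The Gas1 call was lost without HFD 2, HFD+AOS 1 or HFD+AOS 3 (highest 0.1).

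**Figure D5:**
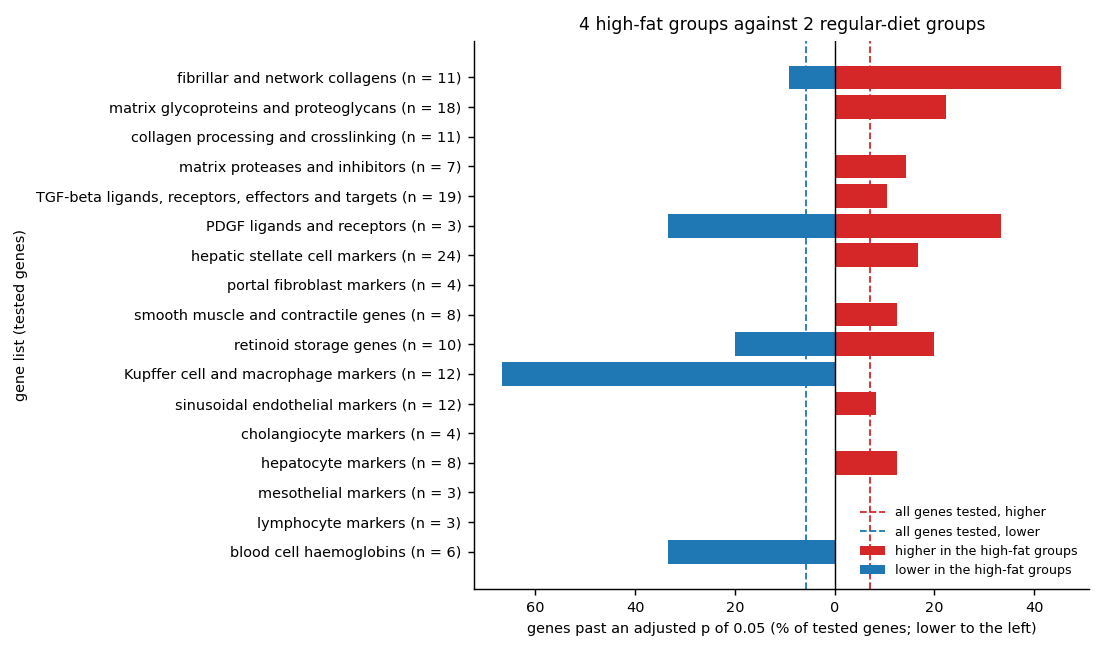
Share of the tested genes of each list (vertical axis, n tested) past a limma adjusted p of 0.05 in the 4 high-fat against the 2 regular-diet groups, in % (horizontal axis; higher to the right, lower to the left); dashed lines give the share of all genes tested, 7.16% higher and 5.74% lower. Of the 11 collagens 5 were higher and 1 lower, of the 24 stellate cell markers 4 were higher, and of the 12 Kupffer cell and macrophage markers 8 were lower.

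Over the 18 livers Acta2 was most like Cenpq (r = 0.84) and Nipa1 (0.82), and Timp1 was most like Mterf1a (0.77) and Klhl2 (0.73). Des was most like Tmem9b (0.70) and Fbxl14 (0.68), and Tgfb1 like Arl13b (0.84) and Ralgapa2 (0.81). Pdgfrb was most like Syf2 (0.83) and Ankrd16 (0.81). In each case these were the 2 highest of 10498 genes. The antisense genes annotated over Lrat (Rbm46os) and Des (Gm15179), and Syn1, in which Timp1 lies on the opposite strand, could add reads to these members, since a stranded library was not stated.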

How the data were processed

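Liver RNA-seq of 18 mice in 6 groups of 3 was used. The authors deposited RPKM values; per the methods reads were aligned with SOAPaligner, while the submitters' processing notes list Bowtie 0.12.2 and mm10. The files' header names no unit, and the annotation and strandedness are not given in the sources used here. Genes with near-identical copies may share reads. No total read count was used; the depth was estimated from the smallest steps between RPKM values of 111 sparse genes (quartiles 10500000 to 14200000 reads). RPKM sums were 692303 to 806937 per liver.

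Genes with RPKM of at least 1 in 3 livers (10507 of 19057) were fitted as log2(RPKM + 1) with limma 3.58.1 (R 4.3.3; group means over all 18 livers, trended empirical Bayes) and called at a Benjamini-Hochberg adjusted p below 0.05. A fold change on this scale understates that of low genes. Count-based tests, DEGseq of the study included, were not run, since RPKM are not counts. The livers are labelled as separate samples, and p-values measure the spread between them; Con 3 and AOS 3 may not be independent of the other livers of their groups. On simulated data for A10-FMT against HFD with 10507 genes, 60 of 100 genes changed by 0.5 and 95 of 100 changed by 1 (log2) were recovered, with 12 unchanged genes called.

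Members and lists were chosen with earlier results of these data known. Most named genes were the members, listed genes that were called (up to 3 per direction and list), a fixed set of pathway genes, and the genes most like the members by Pearson r. Others were named outside these rules. Dpt, Clec3b, Fbln2, Myh11, Cnn1 and Actg2 were named for their values in single livers. Gli1, Mfap5, Pi16 and Timp4 were named for low values, Alb for its abundance, and Acta1 and Actc1 for their likeness to Acta2. Same-numbered livers were not paired: deviations from group means correlated between -0.18 and 0.23, and in 0 of 15 pairs of groups was every correlation over 0.1. Alternatives were another scaling, a pseudocount of 0.1, no filter, only the groups compared, a replicate block, the study's cut-offs (0.001 and a log2 difference of 1), and fewer livers. Leaving the A10-FMT group out of the diet contrast was added after the data were seen. Promoters were taken from RefSeq (GRCm38.p6) and positions from GENCODE M21.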

Additional observations from a re-analysis of the deposited data

How the results depend on the processing

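No result of a single gene changed direction under any alternative. Of 88 such results 59 passed the threshold, and 15 of these passed it under every alternative at that threshold (the study's stricter cut-offs apart). Among the members, Col1a2 kept its call in the F test under all alternatives, and its diet call under all but the omission of the A10-FMT group and the study's cut-offs; the cause of the other losses was not tested. Depth limits Timp1 (1 to 6 reads per liver) and Acta2 (9 to 100) most.

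Numbers of genes called moved as follows. HFD against Con, 40: 26 with no filter, 2 with only the groups compared, 5 with a replicate block, 0 without the third Con and AOS livers, 0 with the study's cut-offs. A10-FMT against HFD, 693 and 0 members: 1084 and 2 members with equal library medians (609 higher and 475 lower, against 275 and 418), 78 with only the groups compared, 395 without the third Con and AOS livers, 39 with the cut-offs. Con-FMT against HFD, 1: 2 with a pseudocount of 0.1, 2 with no filter, 2 with only the groups compared, 2 with the block, 0 with the cut-offs. A10-FMT against Con-FMT, 177 and 1 member: 2 members with equal medians, 100 and 0 with no filter, 4 and 0 with only the groups compared, 82 and 0 without the third livers, 10 and 0 with the cut-offs. AOS against Con, 14: 8 with equal medians, 41 with only the groups compared, 0 without the third livers, 0 with the cut-offs. HFD+AOS against HFD, 919: 435 with only the groups compared, 496 without the third livers, 35 with the cut-offs. The AOS effect between diets, 53: 137 with only the groups compared, 15 without the third livers, 4 with the cut-offs. High-fat against regular diet, 1355 and 2 members: 1 member with no filter, 470 and 1 without the third livers, 31 and 0 with the cut-offs, 0 members without the A10-FMT group. F test, 1550 and 2 members: 1 member with no filter, 523 and 1 without the third livers.

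Leaving out 1 liver gave 0 to 178 genes for HFD against Con, 271 to 1218 genes and 0 to 3 members for A10-FMT against HFD, 1 to 13 genes for Con-FMT against HFD, 51 to 564 genes and 0 to 3 members for A10-FMT against Con-FMT, 0 to 132 for AOS against Con, 320 to 1282 for HFD+AOS against HFD, 29 to 186 for the AOS effect between diets, 861 to 1410 genes and 1 to 2 members for the diets, and 897 to 1854 genes and 1 to 3 members for the F test; the other comparisons kept 0 members. The replicate block changed no call of a member, and of the other named genes it lost those of Col6a2, Mmp15 (A10-FMT against HFD), Vim, Colec11, P4ha2, Col4a2 and Hnf4a.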

Other observations

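Markers of Kupffer cells, the resident macrophages of the sinusoids, were lower in the 4 high-fat groups, of which 2 also received microbiota, than in the 2 regular-diet groups. Of 12 markers tested, of 15 listed, 8 fell and none rose in the 4 high-fat groups, with a median difference of -0.44 beside 0.01 for all genes. Of all genes tested, 5.74% were called lower and 7.16% higher. In HFD against Con, and in the F test over the 6 groups, limma called none of the 12; the median was -0.35 in the former. The summed markers of HFD 3, 228.88 RPKM, exceeded every Con liver (147.75 to 221.02). Clec4f, a lectin found on Kupffer cells, fell by 0.55 (limma adjusted p = 0.0122), C1qb, a chain of complement C1q, by 0.58 (0.0161) and the complement receptor Vsig4 by 0.55 (0.0216). Without the third Con and AOS livers these had adjusted p of 0.0919, 0.0976 and 0.12. C1qb was also lost without Con 1 or AOS 2, and Vsig4 without Con 1, Con 3, AOS 2 or AOS 3. Clec4f stood at 20.98 to 32.99 RPKM in the regular-diet livers and at 13.67 to 22.22 in 11 high-fat livers, while HFD 3 held 30.54. Of 12 sinusoidal endothelial markers 6 were higher on average, with a median of -0.01, and 1 was called: the scavenger receptor Stab2 rose by 0.31 (adjusted p = 0.0174, lost without AOS 2, AOS 3, or the third Con and AOS livers, 0.0806). Of 6 haemoglobin genes 3 were higher on average, with a median of -0.22, and 2 were called: Hbb-b1 and Hbb-b2 fell by 0.95 (adjusted p = 0.0358) and 0.99 (0.0370), and were lost without the third Con and AOS livers (0.17 and 0.165) and without any 1 of 8 and 10 single livers. Apoa1, a hepatocyte lipoprotein gene, rose by 0.30 (0.0259), and was lost without the third Con and AOS livers (0.135), the A10-FMT group, or any 1 of Con 1, Con 3, AOS 2 and AOS 3.

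Retinoid genes expressed in hepatocytes as well moved both ways. Rbp4, which carries retinol into the blood, was higher in the high-fat groups by 0.36 (limma adjusted p = 0.00261), and Retsat, retinol saturase, by 0.55 (adjusted p = 0.00599). Pnpla3, a retinyl ester hydrolase, was lower by 0.97 (adjusted p = 0.00334), with 0.56 to 4.33 RPKM in the regular-diet livers and 0.07 to 1.59 in the others. These 3 calls were kept in all 25 alternatives. In HFD against Con, which compares the diets without transfer or AOS, none of the 10 retinoid genes tested was called. There 5 of the 10 were higher on average, with a median of 0.01 beside 0.05 for all genes. None of the 10 was called in A10-FMT against Con-FMT. Rbp4 was also higher in A10-FMT than in HFD by 0.43 (adjusted p = 0.0261, lost without HFD 2, HFD 3, A10-FMT 1, A10-FMT 2, or the third Con and AOS livers, highest 0.156). Stra6l, a receptor for retinol-binding protein, fell by 0.31 in the high-fat groups (adjusted p = 0.0247, lost without the third Con and AOS livers, Con 3, any AOS liver or the A10-FMT group, highest 0.244). It was lower in HFD+AOS than in HFD by 0.55 (adjusted p = 0.0239, lost without HFD 2, HFD+AOS 2, HFD+AOS 3, or the third Con and AOS livers, highest 0.0761) and in A10-FMT by 0.81 (adjusted p = 0.00273, lost only when these groups were fitted alone). The lipases Pnpla2 and Lipe were higher in HFD+AOS than in HFD by 0.47 (adjusted p = 0.0128, lost without the third HFD liver, 0.0574) and 0.57 (adjusted p = 0.0287, lost without any HFD+AOS liver, HFD 2, HFD 3, or the third Con and AOS livers, highest 0.109). Hnf4a, a hepatocyte transcription factor, was lower in HFD+AOS by 0.26 (adjusted p = 0.0473), a call lost in 9 of 12 alternatives, among them equal library medians, the replicate block and 5 of 6 single livers.

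Sox9, a transcription factor of bile duct cells, stood at 3.56, 2.65 and 2.53 RPKM in HFD, 1.33, 1.05 and 1.03 in HFD+AOS and 0.91, 1.06 and 0.76 in A10-FMT. It was lower than in HFD by 0.87 (limma adjusted p = 0.00318) and 1.03 (adjusted p = 0.000887) on the log2 scale, in comparisons that share the HFD livers, and both calls were kept in all 12 alternatives. It was the called gene of 4 cholangiocyte markers tested, and the other 3 had a higher mean than in HFD in both comparisons, with list medians of 0.16 in A10-FMT and 0.08 in HFD+AOS. None of the 4, Sox9 included, was called between A10-FMT and Con-FMT, which differ in the donors' treatment. The same held for Con-FMT against HFD and for HFD against Con.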
